A study of Mus musculus with 2 samples.

Results

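The nuclear genes of the mitochondrial respiratory chain and ATP synthase are the subject here, as measured in mouse flexor tendon cells under mechanical shear. They were taken by name: every gene whose symbol begins with Nduf, Uqcr, Cox4 to Cox8 or Atp5, the succinate dehydrogenase genes Sdha to Sdhd, Cyc1 and Cycs. The rule found 92 genes of the 10843 named on the array, carried by 255 of its 42624 spots. Each of the 92 was measured on both arrays, 73 of them by 2 or more spots and 19 by 1 spot.

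The respiratory chain passes electrons from NADH and succinate to oxygen through complexes I to IV of the inner mitochondrial membrane. The proton gradient this builds drives ATP synthase, complex V. Each complex combines a catalytic core with small accessory subunits. Most subunits are encoded in the nucleus, and the few made from mitochondrial DNA had no named spot here. In fibroblast-like cells such as tenocytes, the widely expressed forms of subunits are used, while several subunits of complex IV have further forms made mainly in heart and muscle or in testis.

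Tenocytes were sheared for 6 h or 12 h, and each group was compared on 1 array with unsheared control cells of the same time point. The 12 h cells were sheared at 50 rpm and hybridised against control tenocytes. The 6 h array held pooled sheared cells against pooled control cells, with no speed in the label. The labels give no strain, age, passage or number of animals. Sheared RNA carried Cy5 and control RNA carried Cy3 on both arrays, with no dye swap.

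Values are log2 ratios, likely of sheared over control, from which the median of all spots of the array was taken away. The base of 2 is assumed from the range of the values, and the direction from the dyes in the labels. That median was -0.323 on the 6 h array and -0.479 on the 12 h array, and the deposited ratios are lower by these amounts. A gene's value is the median of its spots, and SD is the spread between spots of 1 gene. Pooled over the 73 members with 2 or more spots, this SD was 0.455 at 6 h and 0.616 at 12 h. Pooled over all genes it was 0.738 and 0.855. It covers clones and spots, not cultures, and 1 array per time point allowed no test of any difference. The number of arrays limits the precision, and the brightness of spots was not used here. A ratio also gives no level, so whether the cells express tendon markers could not be checked. Of 12 tendon markers 8 were named on the array, without Scx, Tnmd, Mkx and Thbs4.

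The respiratory chain and ATP synthase genes read higher in sheared cells on both arrays. Their median log2 ratio was 0.88 at 6 h, or 1.84-fold, and 1.71 at 12 h, or 3.28-fold. The medians over all genes measured were -0.11 and -0.14. At least 1.5-fold higher values were found for 72 of 92 members at 6 h (78.3%), against 18.2% of all genes. At 12 h this held for 78 members (84.8%), against 24.4% of all genes. At least 1.5-fold lower values were found for 4 members at 6 h, where 31.3% of all genes lay so low, and for no member at 12 h, against 33.1% of all genes. From 2-fold, 28 members were higher at 6 h and 69 at 12 h, against backgrounds of 6.2% and 14.5%. From 3-fold, no member was higher at 6 h and 52 were at 12 h, against 1.3% and 5.74% of all genes. Cox8b alone was 2-fold and 3-fold lower at 6 h, where 18.8% and 8.65% of all genes lay so low. At 12 h no member was 2-fold or 3-fold lower, against 20.5% and 9.74%. As deposited, without centring, 43 members were at least 1.5-fold higher at 6 h and the members' median was 0.56. Of all genes, 8.35% were so high at 6 h under that setting, with a median of -0.44. At 12 h the median of all genes was -0.62 without centring. On both arrays, 70 members were at least 1.5-fold higher, against 13.8% of the 10286 genes measured on both. Were the direction the opposite one, every sign would turn, and the same 72 and 78 members would be the lower ones, against the same 18.2% and 24.4% of all genes.

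The 12 h values were larger for most members. Only the 6 h label names pooled cells and only the 12 h label gives a speed. Time can therefore not be told apart from pooling, shear speed or the array itself, here and in every difference between the times. Of the 92, 86 stood higher at 12 h than at 6 h and 6 stood lower. The median of the difference was 0.84 log2, against 0.12 over the 10286 genes on both arrays, and 63 members (68.5%) differed upward by at least 1.5-fold, as did 24.9% of all genes. From 2-fold this held for 28 members and from 3-fold for 2, against 11.5% and 4.34%. A single member, Ndufaf4, was at least 1.5-fold lower at 12 h than at 6 h, against 17.4% of all genes, and none was 2-fold or 3-fold lower, against 7.35% and 2.24%. The spread of values is wider on the 12 h array, and with both arrays brought to the same median absolute deviation the members' median difference was 0.54. Members high at 6 h tended to be high at 12 h, with r = 0.72 and a Spearman rho of 0.77 across the 92 genes. The same r over all genes was 0.66. Genes share the array, the dyes and the RNA pool, so these correlations describe 2 arrays only.

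**Figure D1:**
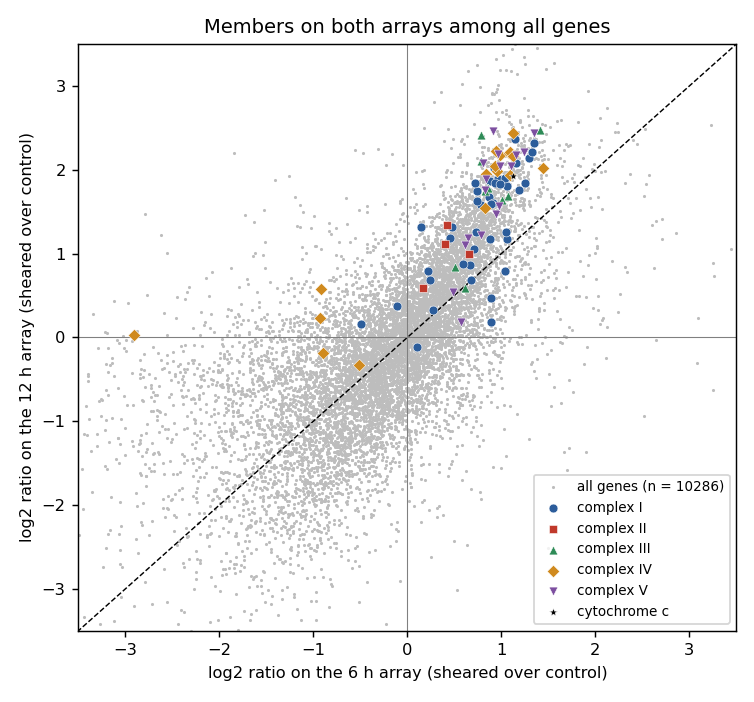
Each point is a gene, with its log2 ratio of sheared over control at 6 h on the x axis and at 12 h on the y axis; grey points are genes measured on both arrays (10286, a few of which lie outside the axes) and coloured symbols are members by complex. The dashed line marks equal values, and 86 of the 92 members lie above it.

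By median, complex II was the lowest of the complexes on both arrays, and no test of the differences between complexes was possible. At 6 h the medians were 0.89 for complex I (44 genes), 0.41 for complex II (4 genes), 0.82 for complex III (9 genes), 0.95 for complex IV (17 genes) and 0.91 for complex V (17 genes). At 12 h they were 1.60, 1.05, 1.74, 1.98 and 1.89 in the same order. Complex I counts 8 assembly factors and complex IV 6 tissue isoforms. Without these the medians were 0.93 and 1.75 for complex I and 1.085 and 2.04 for complex IV. The genes of complex II lay at 0.16 to 0.65 at 6 h and 0.58 to 1.34 at 12 h. These values fell within the range of complex I without its assembly factors, 0.14 to 1.34 and 0.46 to 2.37.

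**Figure D2:**
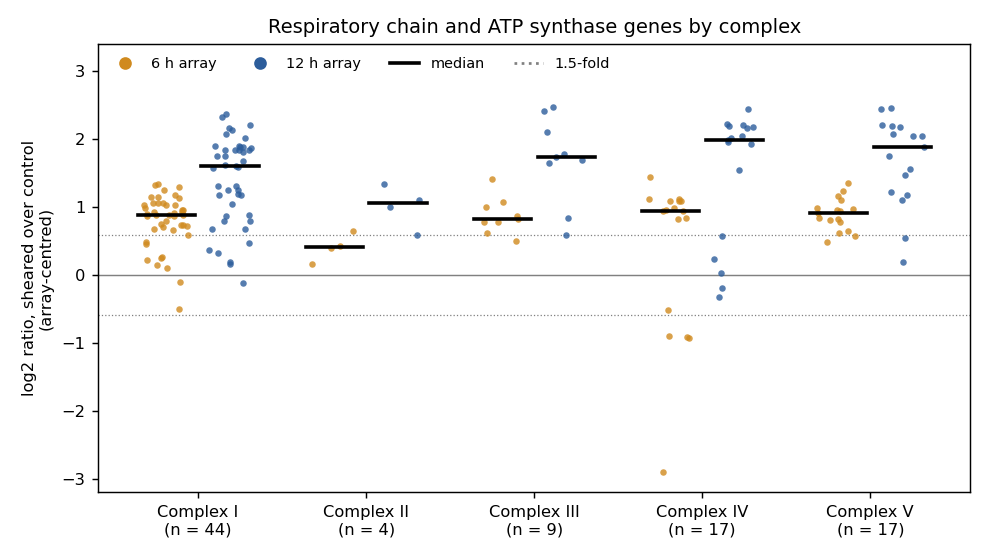
Points are genes, in orange for the 6 h array and blue for the 12 h array, with log2 ratio of sheared over control on the y axis; black bars are medians and dotted lines mark 1.5-fold. Complex II has the lowest median on each array (0.41 and 1.05), and complex IV holds all 4 members that were at least 1.5-fold lower at 6 h.

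By median, the members differed by role, more at 12 h than at 6 h. The catalytic, redox and core subunits of complexes I, II, III and V, 17 genes, had medians of 0.68 at 6 h and 1.10 at 12 h. The 17 also count the gamma, delta and epsilon subunits of ATP synthase, which are not catalytic. The accessory and small subunits of complexes I, III, IV and V, 56 genes, had medians of 0.96 and 1.92. Complex II is only among the 17 and complex IV only among the 56, so these medians mix role with complex. At 6 h the contrast was slight within complex I (0.88 against 0.95) and III (0.74 and 0.79 against 0.82), and larger in V (0.62 against 0.97). At 12 h it was 0.98 against 1.83 in complex I, 1.19 and 1.26 against 2.10 in III and 1.10 against 2.06 in V. Of the 56, 53 were at least 1.5-fold higher on both arrays, against 13.8% of all genes, and 46 were at least 3-fold higher at 12 h, a level reached by 5.74% of all genes. Of the 17, 11 were at least 1.5-fold higher on both arrays and 4 at least 3-fold higher at 12 h. The difference between the times was 0.93 log2 at the median for the accessory and small subunits and 0.33 for the 17 genes. The 6 members that stood lower at 12 h than at 6 h were Ndufs3, Ndufv2, Uqcrc2, Atp5d, Ndufaf1 and Ndufaf4, core or F1 head subunits or assembly factors. Even the largest of these drops, -0.70 for Ndufaf4, lay within the pooled SD of the difference over all genes, 0.74. The set also depends on centring. Without it every difference falls, and the lowest of the accessory and small subunits, 0.11 with centring, turns negative. The quartile ranges of both groups overlapped at 6 h (0.57 to 0.87 against 0.84 to 1.12) and lay apart at 12 h (0.59 to 1.34 against 1.66 to 2.17), while their full ranges overlapped on both arrays.

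**Figure D3:**
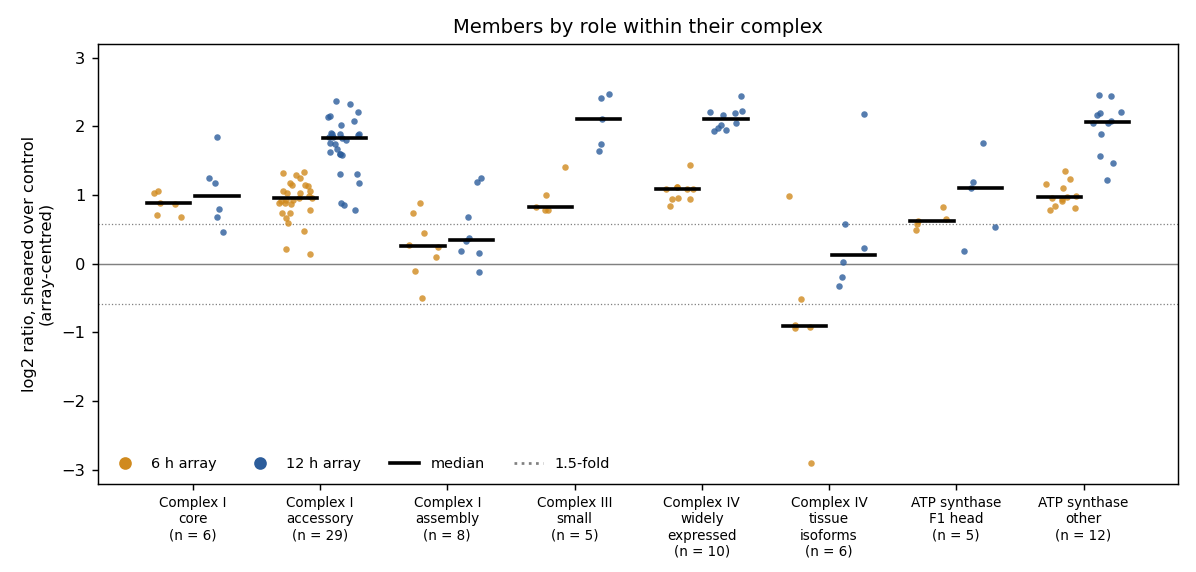
Points are genes grouped by their role, in orange for the 6 h array and blue for the 12 h array, with log2 ratio of sheared over control on the y axis and black bars for medians. Core subunits of complex I have nearly the same median on both arrays (0.88 and 0.98), whereas its accessory subunits move from 0.95 to 1.83; the tissue isoforms of complex IV lie lowest at 6 h.

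In complex I, which oxidises NADH, the core subunits that carry the flavin and most of the iron-sulfur clusters were as high as the accessory ones at 6 h but not at 12 h. Their median was 0.88 at 6 h and 0.98 at 12 h over 6 genes. Ndufv1, which binds NADH and the flavin, stood at 0.87 (SD 0.08, 2 spots) and 1.17 (SD 0.19). Its partner Ndufv2 stood at 1.04 (SD 0.60, 2 spots) and 0.80 (SD 0.28). Ndufs1, the largest subunit of the NADH module, stood at 0.68 on both arrays, by 1 spot. None of these 3 core genes stood higher at 12 h than at 6 h by more than the pooled SD between spots.

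The subunits of the arm that hands electrons to ubiquinone were less alike. Ndufs3 stood at 0.89 (SD 0.09, 2 spots) at 6 h and 0.46 (SD 0.78) at 12 h, where its spots lay at 1.02 and -0.09. As deposited, without centring, its 12 h value was -0.01. Ndufs7 stood at 1.05 (SD 0.10, 2 spots) and 1.25 (SD 0.07). Ndufs8, an iron-sulfur subunit, was the exception among the core genes, at 0.71 (SD 0.19, 2 spots) and 1.84 (SD 0.38), and both of its spots stood higher at 12 h, by 0.99 and 1.26.

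The 29 accessory subunits of complex I lay between 0.14 and 1.34 at 6 h and between 0.79 and 2.37 at 12 h. At least 1.5-fold higher values were found for 26 at 6 h and for all 29 at 12 h, against 18.2% and 24.4% of all genes. The 29 count Ndufa4 and Ndufs5-ps, described below. Ndufa1, a small subunit of the membrane arm, stood at 1.34 (SD 0.29, 4 spots) and 2.32 (SD 0.73), where 1 spot read 0.92 and the median of its spots exceeded the value of 98.9% of genes. Ndufs6, which binds zinc in the matrix arm, stood at 1.32 (SD 0.18, 3 spots) and 2.21 (SD 0.40). Ndufa6, of the LYR protein family, stood at 1.14 and 2.37 on 1 spot. These were the 3 members of complex I with the highest mean of both arrays.

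The membrane-arm genes named Ndufb and Ndufc stood close together. All 12 were at least 1.5-fold higher at 12 h than at 6 h, as were 24.9% of all genes, with differences between 0.71 and 1.17 log2. Their values lay between 1.31 and 2.08 at 12 h. Ndufc1 was the lowest of them at 6 h, at 0.14 (SD 0.29, 3 spots), and stood at 1.31 (SD 0.10) at 12 h. It turned to -0.18 at 6 h without centring. Ndufv3 was also low at 6 h, at 0.22 (SD 0.23, 2 spots), and stood at 0.79 (SD 0.20) at 12 h, and its 6 h value turned negative without centring. Ndufs5-ps, at 0.98 (SD 0.18, 2 spots) and 1.83 (SD 0.34), is listed by RefSeq as a transcribed pseudogene, so its spots and those of its parent gene may share signal.

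Ndufa4 is named for complex I but is known as a component of complex IV. It stood at 1.03 (SD 0.45, 2 spots) and 1.89 (SD 0.12). Its paralogue Ndufa4l2, a gene known to be induced by hypoxia, stood at 0.71 (SD 0.11, 3 spots) and 1.05 (SD 0.37). The gap between them was 0.33 at 6 h, under the pooled SD between spots, and 0.84 at 12 h, above the 0.616 of the members and just under the 0.855 of all genes.

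The 8 assembly factors of complex I, which help to build the enzyme and leave it when it is complete, stood near 0. Their medians were 0.26 at 6 h and 0.35 at 12 h, and both turned negative without centring (-0.07 and -0.13). All genes then had medians of -0.44 and -0.62. At least 1.5-fold higher values were found for 2 of 8 at 6 h and for 3 at 12 h. Of all genes, 18.2% and 24.4% were that high, so the upward counts of these few genes lie near the background. None was 1.5-fold lower on either array, where 31.3% and 33.1% of all genes lay so low. Only Ndufaf8, at 0.73 and 1.25 on 1 spot, passed 1.5-fold on both arrays. Ndufaf3 stood at 0.24 (SD 0.54, 5 spots) and 0.68 (SD 0.24). Ndufaf6 stood at 0.45 (SD 0.71, 3 spots) and 1.18 (SD 0.93). Both are thus above 1.5-fold at 12 h only, with a wide spread for Ndufaf6.

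Ndufaf4 ran the other way between the times, at 0.89 (SD 0.05, 2 spots) and 0.19 (SD 0.16), and both of its spots stood lower at 12 h. Ndufaf1 stood at 0.10 (SD 0.11, 2 spots) and -0.12 (SD 0.93). Ndufaf7 stood at -0.11 (SD 0.60, 2 spots) and 0.37 (SD 0.41). Ndufaf2 and Ndufaf5, each on 1 spot, stood at -0.49 and 0.16, and at 0.27 and 0.33. Without centring, the 6 h values of Ndufaf1, Ndufaf3 and Ndufaf5 and the 12 h values of Ndufaf2, Ndufaf4, Ndufaf5 and Ndufaf7 turned negative.

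Complex II, succinate dehydrogenase, links the chain to the citric acid cycle, and its genes gave the lowest median of the 5 complexes. Sdha, the flavoprotein that oxidises succinate, stood at 0.16 (SD 0.26, 6 spots) at 6 h and 0.58 (SD 0.22) at 12 h. It was the lowest of the 4 on both arrays, just under 1.5-fold at 12 h, and its 6 h value was -0.16 without centring. All 6 of its spots stood higher at 12 h than at 6 h, by 0.19 to 0.61. Sdhb, the iron-sulfur subunit, stood at 0.42 (SD 0.15, 2 spots) and 1.34 (SD 0.03). The membrane anchor Sdhc stood at 0.65 (SD 0.18, 3 spots) and 0.996 (SD 0.14). The other anchor, Sdhd, stood at 0.40 (SD 0.49, 5 spots) and 1.11 (SD 1.46), and 1 of its spots read 1.05 at 6 h and -2.09 at 12 h. Only Sdhc passed 1.5-fold at 6 h, and 3 of the 4 did so at 12 h, against 18.2% and 24.4% of all genes. The 6 h count of these 4 genes lies near the background.

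Complex III passes electrons from ubiquinone to cytochrome c, and all of its 9 genes were at least 1.5-fold higher at 12 h, against 24.4% of all genes. Uqcrh, the hinge protein, was the highest, at 1.41 (SD 0.17, 3 spots) and 2.47 (SD 0.17), above 98.0% and 99.3% of all genes. Uqcr10, a small subunit, stood at 0.78 and 2.41 on 1 spot, the second largest difference between the times among the members. Uqcrq, also small, stood at 0.78 and 2.10 on 1 spot. Uqcrb stood lower than these at 12 h, at 0.82 (SD 0.22, 3 spots) and 1.74 (SD 0.04). Over the 5 small subunits the median difference between the times was 1.06 log2, against 0.45 and 0.47 for the core and redox proteins of the complex, 2 genes each.

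By median, the core and redox proteins of complex III lay lower than its small subunits, with 1 pair split. Uqcrc1 and Cyc1 nevertheless lay within the range of the small subunits on both arrays, 0.78 to 1.41 and 1.64 to 2.47. Uqcrc1 and Uqcrc2 are the 2 core proteins on the matrix side. Uqcrc1 stood at 0.86 (SD 0.11, 3 spots) and 1.78 (SD 0.04). Uqcrc2 stood at 0.61 (SD 0.15, 4 spots) and 0.59 (SD 0.17). The 12 h spots of the pair did not overlap, since those of Uqcrc1 lay from 1.76 to 1.85 and those of Uqcrc2 from 0.37 to 0.73. Uqcrfs1, the Rieske iron-sulfur protein, stood at 0.51 and 0.84 on 1 spot. Cyc1, cytochrome c1, stood at 1.07 (SD 0.21, 2 spots) and 1.69 (SD 0.10).

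Cycs encodes cytochrome c, the soluble carrier between complexes III and IV. It stood at 1.12 (SD 0.23, 6 spots) at 6 h and 1.92 (SD 0.14) at 12 h. Its 6 spots lay from 0.83 to 1.525 at 6 h and from 1.62 to 1.98 at 12 h. They are repeats on 1 array per time point, and how many other genes show such a gap was not counted.

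Complex IV, cytochrome c oxidase, reduces oxygen, and its widely expressed nuclear subunits stood close together. The 10 genes lay between 0.83 and 1.44 at 6 h and between 1.93 and 2.44 at 12 h, with medians of 1.09 and 2.11. Cox5b, which binds zinc, stood at 1.12 (SD 0.17, 5 spots) and 2.44 (SD 0.52). Cox8a stood at 1.44 (SD 0.21, 2 spots) and 2.02 (SD 0.36), the highest 6 h value of all members. Cox4i1, the largest nuclear-encoded subunit, stood at 1.08 (SD 0.20, 4 spots) and 2.20 (SD 0.08). Cox7a2l, which joins complexes into supercomplexes, stood at 0.82 (SD 0.52, 6 spots) and 1.55 (SD 1.14), with 1 spot at -0.34 and -1.23.

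The isoforms of complex IV known from heart and muscle or from testis stood lower than their widely expressed counterparts on both arrays, except Cox6a2. Between the times they differed by about as much, with a median of 1.18 log2 and 5 of 6 at least 1.5-fold higher at 12 h than at 6 h, against 1.11 and 9 of 10 for the widely expressed genes. Of all genes, 24.9% were so much higher at 12 h than at 6 h. At 6 h, 4 of the 6 isoforms were at least 1.5-fold lower, against 31.3% of all genes, and at 12 h none was, against 33.1%. Cox7a1, a heart and muscle form, stood at -0.89 and -0.19 on 1 spot, against 0.94 (SD 0.28, 3 spots) and 2.23 (SD 0.13) for its counterpart Cox7a2. Cox8b, also of heart and muscle, stood at -2.90 and 0.03 on 1 spot. That is the lowest 6 h value and the largest difference between the times among the members, and it lay 4.34 log2 below Cox8a at 6 h and 1.99 below it at 12 h. The testis forms Cox7b2 and Cox8c, each on 1 spot, stood at -0.51 and -0.33, and at -0.93 and 0.23. Cox6b2, another testis form, stood at -0.92 (SD 2.17, 2 spots) and 0.58 (SD 0.63), and its spots read 0.61 and -2.45 at 6 h. Its counterpart Cox6b1 stood at 1.09 (SD 0.20, 3 spots) and 2.21 (SD 1.38), with 1 spot at -0.14 at 12 h.

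Cox6a2, the heart and muscle form of subunit 6a, read like a widely expressed gene. It stood at 0.98 (SD 0.32, 3 spots) and 2.18 (SD 0.22), and its 3 spots lay from 0.93 to 1.52 and from 1.82 to 2.20. Its counterpart Cox6a1 stood at 0.83 (SD 0.04, 2 spots) and 1.95 (SD 0.07), so the pair differed by 0.15 and 0.23, within the pooled SD between spots. Whether the spots of the pair share signal was not tested. Markers of muscle did not stand as high. The skeletal muscle list had 9 of 14 genes on the array, with a median of -0.60 and a range of -1.33 to 0.58 at 6 h, and of 0.06 and -0.95 to 0.95 at 12 h. The heart list, with all 6 genes, had medians of 0.03 and 0.14. Without centring both 12 h medians and the 6 h median of heart turned negative, and the latter was also negative with the mean of spots or with 2 or more spots per gene.

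In ATP synthase, the 5 genes of the F1 part, called the F1 head here, had lower medians than the rest of the enzyme on both arrays. They include the gamma, delta and epsilon subunits, which are not catalytic. The medians were 0.62 and 1.10, against 0.97 and 2.06 for the other 12 genes. Atp5b, the catalytic beta subunit, was the highest of the 5, at 0.83 (SD 0.70, 16 spots) and 1.76 (SD 1.02). It lay above the lowest values of the other 12, 0.79 and 1.22, so the ranges overlapped. Of its spots, 1 read -1.74 and -2.19. Atp5a1, the alpha subunit, stood at 0.65 (SD 0.26, 6 spots) and 1.18 (SD 0.35), and the gamma subunit Atp5c1 stood at 0.62 (SD 0.16, 3 spots) and 1.10 (SD 0.69). The delta subunit Atp5d stood at 0.57 (SD 0.45, 3 spots) and 0.18 (SD 0.50), and its 12 h value turned negative without centring. Atp5e, epsilon, stood at 0.48 (SD 1.30, 2 spots) and 0.54 (SD 2.13), because its spots disagreed on both arrays, at 1.40 and -0.43 and at 2.04 and -0.96.

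The c ring turns with the flow of protons, and its subunit is encoded by 3 genes for the same mature protein. Atp5g1 stood at 1.35 (SD 0.39, 4 spots) and 2.44 (SD 0.49). Atp5g2 stood at 0.96 and 2.19 on 1 spot, and Atp5g3 at 0.94 (SD 0.50, 2 spots) and 1.47 (SD 0.27). The 3 may share signal where their sequences match, and Atp5g1 was the highest of them on both arrays. Its 12 h spots, 2.24 to 3.29, did not overlap those of Atp5g3, 1.28 to 1.65.

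Among the stalk and small membrane subunits, all 9 were at least 1.5-fold higher on both arrays, as were 13.8% of all genes. Atp5h, subunit d of the peripheral stalk, stood at 0.91 (SD 0.40, 3 spots) and 2.46 (SD 0.99), and 1 spot read 0.35 and 0.90. It had the third largest difference between the times among the members. Atp5j2, subunit f, stood at 1.24 (SD 0.11, 2 spots) and 2.21 (SD 0.01). The 4 stalk genes had medians of 0.94 and 1.87, and the 5 small membrane genes 0.98 and 2.04. The latter spanned 1.89 to 2.21 at 12 h, the narrowest range of any role with 3 or more genes.

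Some genes held single spots far from their others. In the 43 members with 3 or more spots, 176 spots in all, 5 spots lay at least 1 log2 below the median of their gene at 6 h and 10 at 12 h, and 4 of these did so on both arrays: 1 each of Atp5b, Atp5md, Cox7a2l and Ndufaf6. Spots at least 1 log2 above their gene's median numbered 2 at 6 h, of Ndufab1 and Ndufaf3, and 1 at 12 h, of Atp5c1. Deviations from the gene median correlated between the arrays with r = 0.45 over the 176 spots, which are the same printed spots on both arrays. Ndufab1, the mitochondrial acyl carrier protein, stood at 0.91 (SD 0.86, 7 spots) and 1.60 (SD 0.66), and the spot that read 2.94 at 6 h read 0.56 at 12 h.

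**Figure D4:**
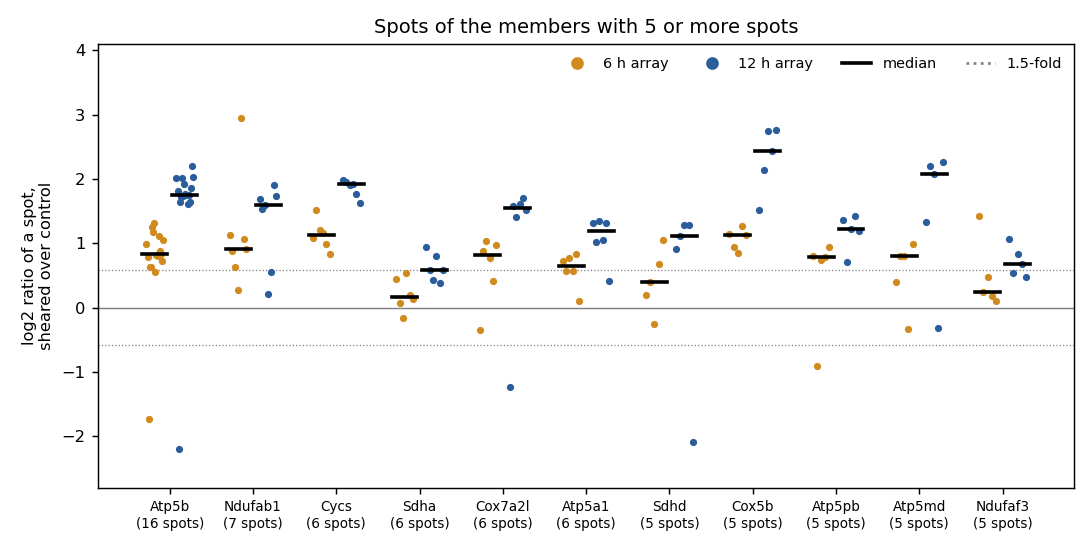
Points are single spots of the 11 members with 5 or more spots, with log2 ratio of sheared over control on the y axis, in orange for 6 h and blue for 12 h; black bars are medians. In Atp5b, 15 of 16 spots lie together on each array and 1 lies at -1.74 and -2.19; the 6 spots of Cycs and of Sdha keep close to their medians.

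Other genes of mitochondrial energy supply stood closer to 0 than the members at the median. The counts of their lists stand beside 18.2% of all genes higher and 31.3% lower at 6 h, and 24.4% higher and 33.1% lower at 12 h. List medians without centring stand beside medians of all genes of -0.44 at 6 h and -0.62 at 12 h. Of 17 genes of the citric acid cycle and pyruvate dehydrogenase, 7 were at least 1.5-fold higher at 6 h and 6 at 12 h, none lower, with medians of 0.42 and 0.37, the second of which was -0.11 without centring. Mdh2, malate dehydrogenase, was the highest, at 1.11 (SD 0.01, 2 spots) and 1.88 (SD 0.09), followed by Idh3g, a subunit of isocitrate dehydrogenase, at 0.72 (SD 0.04, 2 spots) and 1.496 (SD 0.75). The lowest were Ogdh, of the oxoglutarate dehydrogenase complex, at -0.04 (SD 0.93, 8 spots) and -0.52 (SD 1.06), and Dlat, of pyruvate dehydrogenase, at -0.21 (SD 0.13, 3 spots) and -0.18 (SD 0.24). The cycle enzymes thus stood on both sides of 0 at 12 h, where complex II, which is also an enzyme of the cycle, had no gene below 0.58.

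Assembly factors of complexes II to V stood on both sides of 0. Of 21 measured at 6 h, 8 were at least 1.5-fold higher and 4 lower, and of 22 at 12 h, 10 were higher and 5 lower. The medians, 0.31 and 0.38, were -0.02 and -0.10 without centring, where all genes had medians of -0.44 and -0.62. The small factor Cox14, for complex IV, stood at 1.35 (SD 0.01, 2 spots) and 2.13 (SD 0.06), and Atpaf2, for the F1 head, at 0.95 and 2.05 on 1 spot. Coa5 stood at -1.56 (SD 0.12, 2 spots) and -2.89 on 1 spot, and Lrpprc, which stabilises mitochondrial mRNAs, at -0.41 (SD 0.21, 2 spots) and -1.56 (SD 0.33).

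Regulators of mitochondrial gene expression had medians of 0.08 and 0.22 over 15 genes, both negative without centring, with 3 higher and 2 lower at 6 h and 4 higher and 1 lower at 12 h. The upward counts lie near the background. The 2 lowest and 2 highest of the list follow. The transcription factor Nrf1 stood at -0.85 (SD 0.85, 6 spots) and -0.49 (SD 0.25), and Gabpa, the DNA-binding subunit of GABP, at -0.40 and -0.68 on 1 spot. Tfb2m, which starts transcription of mitochondrial DNA, stood at 1.14 (SD 0.09, 2 spots) and 0.70 (SD 0.14), and Tfam, which packages that DNA, at 0.77 and 0.76 on 1 spot. mRNA ratios do not measure the activity of these proteins.

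The list for coenzyme Q synthesis and other donors of electrons to it had 11 genes, with medians of 0.18, which was negative without centring, and -0.25. At least 1.5-fold, 1 gene was higher and 1 lower at 6 h, and 2 were higher and 2 lower at 12 h. Coq9 stood at 0.51 (SD 0.01, 2 spots) and 1.54 (SD 0.11), Etfa, of the electron transfer flavoprotein, at 0.46 (SD 0.37, 3 spots) and 0.76 (SD 0.14), Coq4 at -0.45 (SD 0.45, 2 spots) and -0.38 (SD 0.37, 3 spots), and Gpd2, the mitochondrial glycerol phosphate dehydrogenase, at -1.04 and -0.97 on 1 spot. This list was the only pathway list whose median lay below 0 on either array after centring.

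Carriers and channels of the mitochondrial membranes came nearest to the members among the pathway lists, with medians of 0.60 and 1.20 over 9 genes, with 5 genes past 1.5-fold upward at 6 h, 7 at 12 h and none downward. The ADP/ATP carrier Slc25a5 stood at 1.48 (SD 0.24, 2 spots) and 1.94 (SD 0.36), and the phosphate carrier Slc25a3 at 1.03 (SD 0.08, 2 spots) and 1.44 (SD 0.33). Both supply ATP synthase with its substrates. The muscle creatine kinase Ckmt2 stood at -0.22 (SD 0.60, 3 spots) and 0.05 (SD 0.04, 2 spots), and the brown fat uncoupling protein Ucp1 at 0.52 on 1 spot and -0.37 (SD 1.32, 2 spots).

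Several gene families outside respiration also stood above 0 on both arrays. Cytosolic ribosomal proteins had medians of 1.17 and 2.22 over 67 genes, mitochondrial ribosomal proteins 0.60 (72 genes) and 1.002 (73 genes), and proteasome subunits 0.97 and 1.39 over 36 genes. A list of 20 transcripts known as short and abundant in many cells, such as those of ferritin and thymosin, had medians of 0.92 and 1.92. Those of the accessory and small subunits were 0.96 and 1.92. This list and the ribosomal and proteasome families were added after the data were seen. How close they lie to the members can therefore not be told apart from how they were chosen. Neither the length nor the abundance of a transcript was measured here, and the part of either in the members' values was not tested. Members with 1 spot had medians of 0.73 and 1.17 and those with 3 or more spots 0.89 and 1.79, while over all genes the medians were -0.32 and -0.27 with 1 spot and 0.15 and 0.16 with 3 or more.

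**Figure D5:**
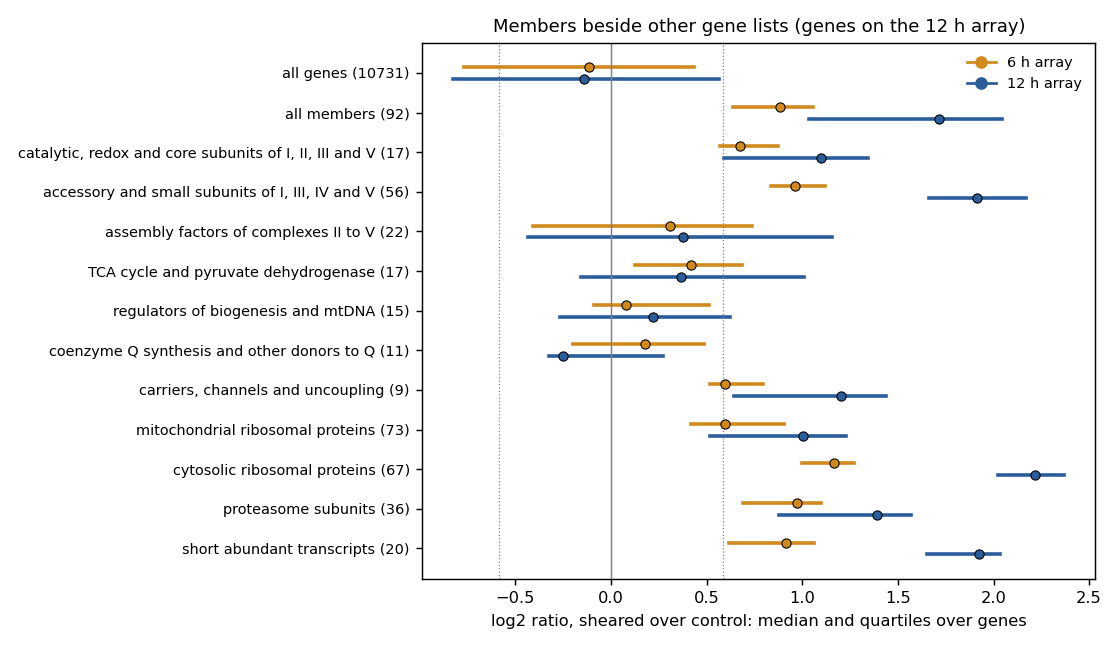
Circles are medians over genes and lines join the quartiles of the log2 ratio of sheared over control on the x axis, in orange for 6 h and blue for 12 h, with the number of genes on the 12 h array in brackets and dotted lines at 1.5-fold. The accessory and small subunits (0.96 and 1.92) lie beside the short abundant transcripts (0.92 and 1.92), and the catalytic and core subunits (0.68 and 1.10) lie beside mitochondrial ribosomal proteins (0.60 and 1.002). The short abundant transcripts and the ribosomal and proteasome families were added after the data were seen.

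The medians of marker lists were lower than the members' on both arrays, and the part of other cells in the members' values was not tested. Tendon markers had medians of 0.43 at 6 h over 7 genes and -0.12 at 12 h over 8, or 0.28 at 12 h with 2 or more spots per gene. Leukocyte markers had medians of 0.39 and 0.46 over 5 genes with a range of -5.42 to 1.70, endothelial markers -0.25 and -0.56 over 3 genes, and adipocyte markers -0.48 over 2 genes and -0.68 over 3. Erythroid markers had medians of -0.79 and -0.46 over 2 genes. Brown fat markers had medians of 0.50 over 3 genes and 0.27 over 4, the latter -0.37 over genes on both arrays. Without centring, the 12 h medians of leukocyte and brown fat markers turned negative.

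The promoters of these genes are known for binding sites of NRF1, GABP and YY1, factors that act on many nuclear genes of mitochondria. RefSeq promoters of GRCm38.p6, from 250 bases before to 50 bases after the start of a gene, were matched by gene ID to 75 of the 92 members. The core NRF1 motif CGCATGCG with a G before it and a C after it, called the full palindrome here, was found in 7 of 75 (9.33%), against 1.47% of 17491 protein-coding genes with such a promoter. The core, which the full palindrome contains, was found in 12 (16%), against 2.77%. A gene was counted if any of its windows held the motif on either strand.

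The other motifs were also counted by complex. The ETS motif CCGGAAG, which GABP can bind, was found in 19 members (25.3%), against 12.9% of all, and 2 of the 3 complex II promoters held it. The YY1 motif AAGATGGC was found in 11 (14.7%), against 3.57%, in 8 of the 38 promoters of complex I and 3 of the 15 of complex V. The ERR motif CAAGGTCA was found in 3 (4%), against 1.56%. CCAAT was found in 46.7%, against 42.3%. A match of letters is not a measured binding site, and no match says only that these letters are not in the window.

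The 5 promoters with the full NRF1 palindrome before the start are given here. Each stretch is 120 bases of the gene's strand, 5′ to 3′, with the palindrome in capitals.
Atp5k, chr5:108434400-108434519, minus strand: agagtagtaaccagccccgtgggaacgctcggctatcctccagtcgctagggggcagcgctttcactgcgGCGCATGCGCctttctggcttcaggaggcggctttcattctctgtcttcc
Cox6a1, chr5:115349051-115349170, minus strand: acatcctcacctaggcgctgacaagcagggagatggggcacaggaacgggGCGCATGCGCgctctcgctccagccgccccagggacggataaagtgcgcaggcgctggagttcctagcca
Atp5g2, chr15:102671048-102671167, minus strand: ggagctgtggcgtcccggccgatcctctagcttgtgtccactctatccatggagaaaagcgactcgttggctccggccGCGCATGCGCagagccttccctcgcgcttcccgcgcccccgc
Ndufa11, chr17:56717642-56717761, plus strand: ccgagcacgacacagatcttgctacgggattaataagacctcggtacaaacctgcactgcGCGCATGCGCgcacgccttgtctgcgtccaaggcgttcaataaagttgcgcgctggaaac
Ndufaf4, chr4:24897920-24898039, plus strand: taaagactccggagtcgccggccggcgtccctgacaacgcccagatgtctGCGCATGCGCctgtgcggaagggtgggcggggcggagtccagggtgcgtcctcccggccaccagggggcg

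Counted from the start of the gene, the palindrome begins at -50 in Atp5k, -162 in Cox6a1, -42 in Atp5g2, -60 in Ndufa11 and -113 in Ndufaf4. Atp5k, a small subunit of ATP synthase, stood at 0.98 (SD 0.17, 2 spots) and 2.04 (SD 0.10). Cox6a1 and Atp5g2, given above, stood at 1.95 and 2.19 at 12 h. Ndufa11, a membrane-arm subunit of complex I, stood at 0.48 (SD 0.31, 2 spots) and 1.31 (SD 0.31). Ndufaf4, an assembly factor, stood at 0.89 and 0.19, and the genes shown ranged from 0.19 to 2.19 at 12 h. Members with and without the palindrome were not compared, so whether the match goes with the ratio was not tested. The other 2 members with the palindrome hold it after the start, and they are Uqcrc1, at 0.86 and 1.78, and the assembly factor Ndufaf5, at 0.27 and 0.33.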

How the data were processed

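The deposited table holds 1 log2 ratio per spot and array. Its base is assumed and its direction is likely sheared (Cy5) over control (Cy3), per the labels. The sources used here do not give how the authors scanned, filtered and normalized the arrays. Spots measured numbered 39776 at 6 h and 41717 at 12 h. Each array was centred on its median. Gene names came from the platform annotation at GEO, in which 21701 spots have 1 gene symbol, 1124 several and 19799 none, and only those with 1 symbol were used. All 92 members were found by gene ID in the RefSeq table of GRCm38.p6 with the same symbol. Spots of a gene were summarised by their median, over 10346 genes at 6 h and 10731 at 12 h. The call was 1.5-fold, with no test, since each time point had 1 array.

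The members and all lists were chosen with earlier results of these data known. The list of short abundant transcripts and the ribosomal and proteasome families were added after the data were seen. Members named with values are the 3 highest and 3 lowest of each complex by the mean of both arrays and those at least 1.5-fold lower on an array. Also named are the 3 largest and 3 smallest differences between times, all of complex II, Cycs and Cyc1. The core of complex I, the F1 head, assembly factors and sets of isoforms, among them Cox4i1 and Cox7a2l, are named as well. Of each pathway list the 2 highest and 2 lowest are named. Ndufc1, Ndufv3, Ndufs5-ps, Ndufab1, Uqcrc1, Atp5k, Ndufa11 and Atp5md were named after their values were seen. Protein lengths were not used here. Alternatives were no centring, print blocks of 900 spots centred, the mean of spots, 2 or more spots, genes on both arrays, several symbols kept, 1 median absolute deviation for both arrays, structural subunits only, and thresholds of 2-fold and 3-fold. Python 3.11.15, pandas 2.3.3 and numpy 2.4.6 were used, and the summaries were tested on simulated data.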

Additional observations from a re-analysis of the deposited data

Results flagged for a closer look

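A member is given here where its value at 6 h and its value at 12 h had opposite signs and at least 1 of them passed 1.5-fold. The difference between the times was not tested, since each time point had 1 array. Cox6b2 stood at -0.92 at 6 h and 0.58 at 12 h, on 2 spots that read 0.61 and -2.45 at 6 h. Cox8b stood at -2.90 and 0.03 on 1 spot. Cox8c stood at -0.93 and 0.23 on 1 spot. All 3 are isoforms of complex IV known from heart and muscle or from testis, and as deposited, without centring, the 12 h values of Cox8b and Cox8c were -0.45 and -0.24.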

How the results depend on the processing

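The number of members at least 1.5-fold higher at 6 h, 72 of 92, was 43 with the values as deposited, 28 from 2-fold and 0 from 3-fold. The deposited values differ by -0.323 throughout, and a higher threshold can only lower a count. In the other 121 comparisons of a main result with an alternative, medians moved by less than the SD between spots. Counts moved by at most 1.5 times. Keeping only genes on both arrays could change no value, since all 92 members were on both, and keeping several symbols changed none. Removing centring shifts every median by -0.323 at 6 h and -0.479 at 12 h, so no median could move past that SD. Without centring the complex II median fell from 0.41 to 0.09 at 6 h. At 12 h it fell from 1.05 to 0.57, under 1.5-fold. The members' median ranged from 0.56 to 0.996 at 6 h and from 1.24 to 1.82 at 12 h, the count at 12 h from 52 (3-fold) to 78, and the median difference between times from 0.54 to 0.86. The median of the heart and muscle isoforms of complex IV at 6 h, -0.89 over 3 genes, was 0.98 with 2 or more spots per gene, which leaves Cox6a2 alone. No paired analysis was possible because each time point had 1 array and the labels carry no replicate numbers. Signal over background is unknown, so spots near background cannot be told from bright ones, and values resting on 1 spot have no check of their own.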
